A study of Rattus norvegicus with 20 samples.

Results

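A set of enzymes of NADPH supply was followed in the livers of rats fed inducers of detoxifying enzymes. They belong to the pentose phosphate pathway or are 2 further dehydrogenases of the cytosol. They were taken as every probe set whose gene symbol in the platform annotation was Me1, Pgd, Tkt, Taldo1, Idh1, Pgls, Rpia or H6pd. All 8 of 8 genes were represented, by 11 of the 31042 probe sets. Of these, 9 reached a log2 level of more than 4 in 5 or more arrays, the filter on low values, and 2 did not. The filtered-out probe sets were second ones of Idh1 and Rpia, so each gene kept at least 1, and 12947 probe sets were tested, among them those of 7837 named genes. The study measured liver RNA on 1 array per rat, from 20 female Sprague Dawley rats, 5 per diet, after 24 days of feeding. BNF rats ate 1650 mg of 5,6-benzoflavone per kg of diet, a compound that binds the aryl hydrocarbon receptor (AhR). D3T rats ate 600 mg of 3H-1,2-dithiole-3-thione per kg of diet. OLT rats ate 500 mg per kg of diet of oltipraz, the same ring carrying a methyl and a pyrazinyl group. Control rats ate the Harlan Teklad diet with nothing added.

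NADPH is the reductant of biosynthesis and of antioxidant defence. The oxidative branch of the pentose phosphate pathway, which includes lactonase (Pgls) and 6-phosphogluconate dehydrogenase (Pgd), makes it from glucose 6-phosphate. The non-oxidative branch, which includes Rpia, Tkt and Taldo1, interconverts the resulting sugar phosphates with those of glycolysis. Malic enzyme (Me1) and cytosolic isocitrate dehydrogenase (Idh1) make NADPH from malate and isocitrate, and H6pd makes it inside the endoplasmic reticulum. In liver the cytosolic pool serves fatty acid synthesis, glutathione reduction and quinone reduction. In mouse and human cells several of these genes, among them Me1, Pgd, Tkt and Taldo1, are known targets of the transcription factor Nrf2, which dithiolethiones activate.

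The values are log2 probe set summaries made by the authors, so a difference of 1 is a 2-fold change, and levels are not compared between genes. Correlations between arrays over kept probe sets lay between 0.930 and 0.992. The array labelled D3T 5 had a mean correlation of 0.979 with the OLT arrays and 0.968 with its own group, and the array labelled OLT 1 one of 0.966 with the D3T arrays and 0.963 with its own group. Whether the labels of these 2 arrays were exchanged was not tested, and an exchange would change what the D3T and OLT means below stand for. Results are therefore given with and without them. OLT 5 also had a lower mean correlation with its own group (0.965) than with the controls (0.970) and BNF arrays (0.968). Without it the same 3 enzymes were called under OLT, while the probe sets called lower under OLT numbered 1066, against 628 with it. Setting aside arrays because they resemble the other group enlarges a difference between the groups by construction. Hepatocyte markers were abundant in every array (6 of 7 measured, with a mean log2 level of 14.68 to 15.25). In whole liver, fewer cells of a type and less RNA per cell cannot be told apart. Red cell markers were higher in both dithiolethione groups: the 2 of 4 that were measured, Hbb and Alas2, had a mean log2 level of 10.84 to 11.85 in D3T arrays and 10.63 to 11.86 in OLT arrays, against 8.93 to 10.49 in controls. Hba-a1 and Slc4a1 had no kept probe set. Hbb and Alas2 were each called under D3T (Hbb by 1.003, Alas2 by 1.93) and under OLT (Hbb by 1.10, Alas2 by 1.84). Of the macrophage markers, 1 of 5 was called lower under OLT (mean log2 level 5.93 to 7.32 in OLT arrays and 6.76 to 7.42 in controls). The part of these markers in the results below was not tested.

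D3T raised 6 of the 8 enzymes: Me1, Pgd, Tkt, Taldo1, H6pd and Idh1, by between 6.10-fold for Me1 and 1.35-fold for Idh1. OLT raised 3 of them, Me1, Pgd and Idh1, and none was called under BNF. No enzyme was called lower than control. A call means an adjusted p under 0.05 in limma's moderated test, adjusted by Benjamini-Hochberg over all kept probe sets. Over all kept probe sets 4.63% were called higher under D3T, 1.53% under OLT and 1.46% under BNF. Called lower were 6.97% under D3T, 4.85% under OLT and 2.02% under BNF. The median difference from control over the 8 genes was 0.80 under D3T, 0.44 under OLT and -0.08 under BNF, beside -0.02, -0.04 and -0.05 over all kept probe sets. The enzymes that D3T left uncalled, Pgls and Rpia, were the lactonase and the pentose isomerase. Without the arrays labelled D3T 5 and OLT 1, D3T still gave 6 calls, the same genes, while OLT gave 1, Me1. The share of all kept probe sets called higher was then 5.52% under D3T and 1.28% under OLT. The 3 comparisons share the control rats, so their values are not independent of each other.

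**Figure D1:**
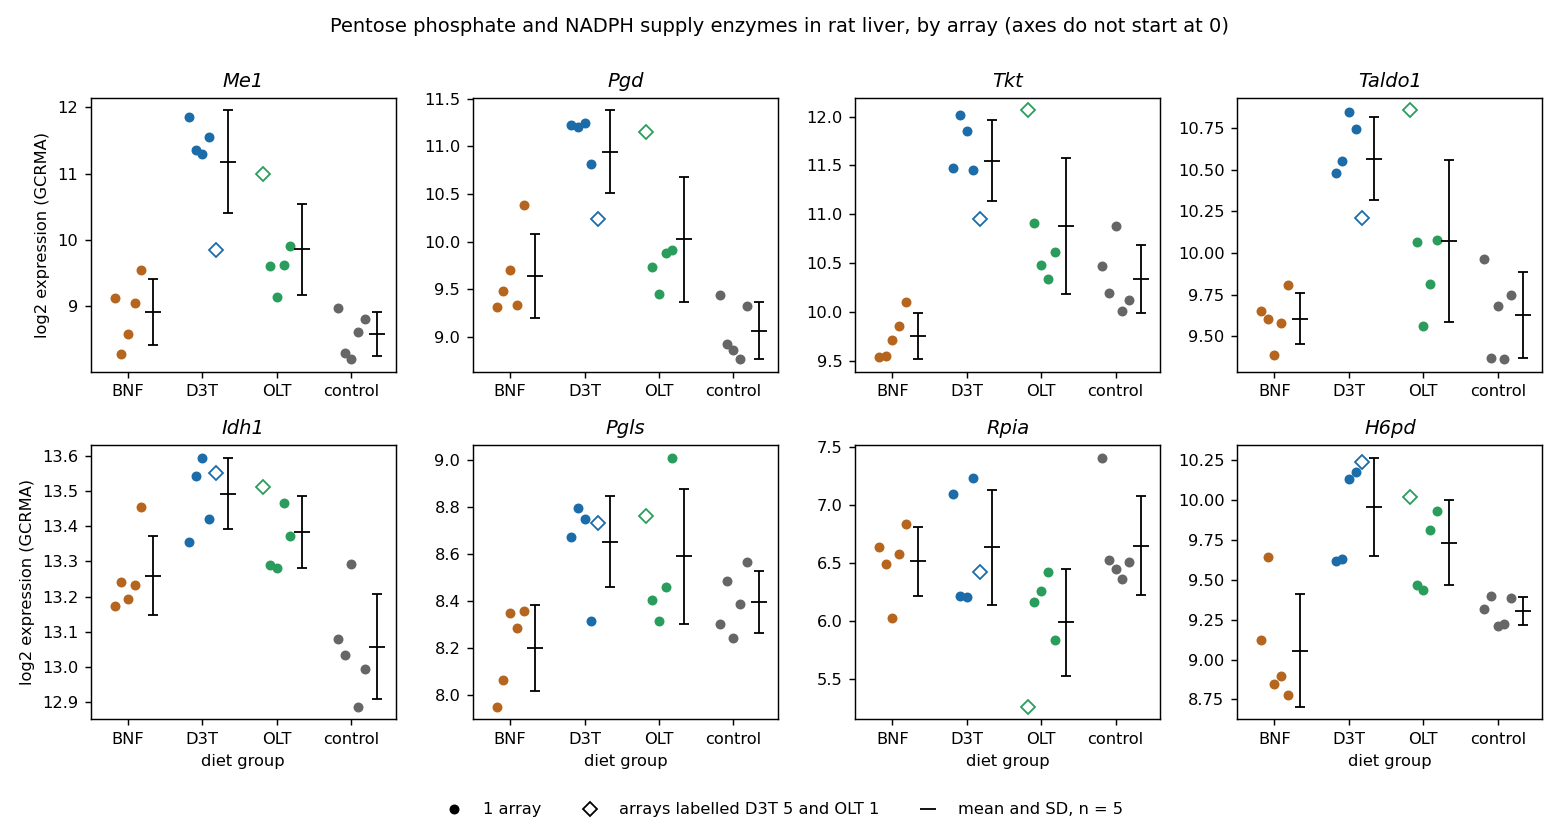
Log2 level of each enzyme in every liver array, 1 panel per gene, with the diets BNF, D3T, OLT and control along the horizontal axis (n = 5 each). Points are arrays, bars are the group mean and SD, and open diamonds mark the arrays labelled D3T 5 and OLT 1. For Me1, Pgd, Tkt and Taldo1 the D3T diamond is the lowest of its group and the OLT diamond the highest of its group.

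**Figure D2:**
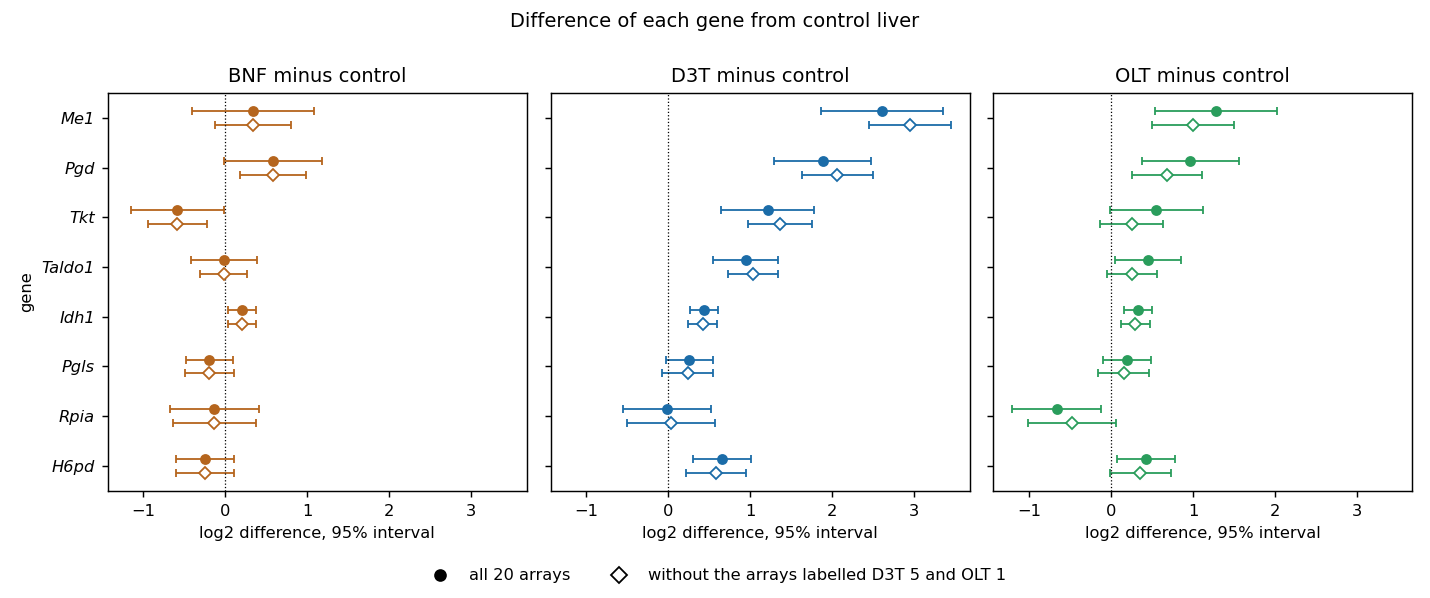
Difference from control (log2) of each enzyme under each diet, with its 95% interval from limma, over all 20 arrays (filled circles) and without the arrays labelled D3T 5 and OLT 1 (open diamonds). Me1 lies furthest to the right in the D3T and OLT panels, at 2.61 and 1.28 over all arrays, and the D3T intervals of 6 genes lie wholly above 0.

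The sequence before the annotated start was available from RefSeq (build GRCr8) for 7 of the 8 genes, Pgls being the one without an entry. Windows of 300 bases, 250 before the start and 50 after it, were searched on both strands for the letters of the antioxidant response element, the site that Nrf2 binds with small Maf proteins (TGACNNNGC), and of the core site of the AhR (GCGTG). The element was found in 2 of the 7 windows, those of Me1 and Idh1, beside 12.1% of 33469 RefSeq promoter windows of the same length. The AhR core was found in 3, those of Me1, Taldo1 and H6pd, beside 29.7%. The promoters of 3 genes are printed from 250 bases before the start up to it, with the element in capitals, because they set the 2 genes that hold the letters beside Pgd, a gene that D3T raised more than Idh1 and that holds none. They lie at chr8:96540245-96540494 (strand -), chr9:74049475-74049724 (strand -) and chr5:164882030-164882279 (strand -) and read 5′ to 3′ in the direction of the gene.
Me1: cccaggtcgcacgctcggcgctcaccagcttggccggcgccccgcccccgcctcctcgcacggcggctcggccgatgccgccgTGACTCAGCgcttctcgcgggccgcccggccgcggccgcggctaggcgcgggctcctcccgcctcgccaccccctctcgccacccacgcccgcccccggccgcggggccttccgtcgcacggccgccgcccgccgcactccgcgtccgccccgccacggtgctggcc
Idh1: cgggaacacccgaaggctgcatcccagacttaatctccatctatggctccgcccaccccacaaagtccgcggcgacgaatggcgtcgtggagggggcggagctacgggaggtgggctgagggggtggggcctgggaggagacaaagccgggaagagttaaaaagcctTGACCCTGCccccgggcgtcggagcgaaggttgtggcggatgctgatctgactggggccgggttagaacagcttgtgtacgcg
Pgd: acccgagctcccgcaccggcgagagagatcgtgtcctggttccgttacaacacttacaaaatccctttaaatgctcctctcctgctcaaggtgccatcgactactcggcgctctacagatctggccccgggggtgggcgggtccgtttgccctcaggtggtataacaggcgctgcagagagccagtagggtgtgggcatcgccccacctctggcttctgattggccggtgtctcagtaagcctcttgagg
In Me1 the match lies 159 to 167 bases before the start and in Idh1 75 to 83 bases before it, both on the gene's own strand. The Me1 match overlaps the letters TGACTCA of the AP-1 site, which 4.63% of the windows hold and no other window of the 7. It does not overlap the 2 AhR cores of Me1, which lie 237 to 241 and 79 to 83 bases before the start on the other strand. A match describes these letters and is not evidence of binding, and the absence of one says only that the letters are not in the window.

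Me1 (gene ID 24552), the cytosolic malic enzyme that turns malate into pyruvate, had the largest difference of the 8 genes under D3T and under OLT. In D3T livers it read 11.86, 11.35, 11.30, 11.56 and 9.84, and in OLT livers 10.99, 9.61, 9.14, 9.62 and 9.91. In BNF livers it read 9.11, 8.27, 8.57, 9.04 and 9.54, and in control livers 8.97, 8.29, 8.19, 8.60 and 8.80. Every D3T and every OLT array lay above every control array, while BNF and control overlapped. The mean was 11.18 ± 0.78 under D3T and 8.57 ± 0.33 in controls (SD, n = 5 each), a difference of 2.61 (SE 0.35, 95% interval 1.87 to 3.35, limma adjusted p = 0.000112). Without the 2 arrays it was 2.94, or 7.70-fold (adjusted p = 3.25e-07). Under OLT the mean of 9.85 ± 0.69 lay 1.28 above control (SE 0.35, 2.43-fold, limma adjusted p = 0.0369), or 0.997 without the 2 arrays (adjusted p = 0.0209). The OLT call was lost when OLT 1, OLT 2 or any one of controls 2 to 5 was left out (adjusted p of 0.0548 to 0.0978), and the D3T call in none of the 20 such fits. BNF, with a mean of 8.91 ± 0.49, gave a difference of 0.34 with an interval of -0.41 to 1.08. On the probe set that stood for Me1 the order of the means was thus D3T, OLT, BNF and control. No 2 neighbours in it were called different with all arrays. On the second probe set of Me1, given below, the BNF mean of 7.03 lay under the control mean of 7.77.

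Of the 2 oxidative branch enzymes among the 8 genes, Pgd rose under D3T and OLT and Pgls was not called. Pgd (gene ID 100360180), which releases carbon dioxide and NADPH from 6-phosphogluconate, read 11.23, 11.21, 11.25, 10.82 and 10.24 in D3T livers and 11.15, 9.73, 9.45, 9.88 and 9.91 in OLT livers. It read 9.31, 9.48, 9.70, 9.33 and 10.38 in BNF livers, against 9.44, 8.92, 8.86, 8.77 and 9.32 in control livers. D3T and OLT arrays all lay above all control arrays, though the lowest OLT array exceeded the highest control array by little. The D3T mean of 10.95 ± 0.44 was 1.89 above the control mean of 9.06 ± 0.30 (SE 0.28, 3.69-fold, limma adjusted p = 0.000278). The OLT mean of 10.02 ± 0.66 was 0.96 above control (SE 0.28, 1.95-fold, limma adjusted p = 0.0484), and 0.68 without the 2 arrays, where it was no longer called (adjusted p = 0.0662). The OLT call of Pgd was lost in 16 of 20 fits that left out 1 array (adjusted p of 0.0533 to 0.113). BNF gave 0.58, with an interval of -0.01 to 1.17, and was not called. Probe sets that the annotation gives to Pgd jointly with 3 other genes, 4 in all, were not used. Pgls (gene ID 290636), the lactonase one step before Pgd, was called in no comparison with control. It lay between 8.31 and 8.79 in D3T livers, between 8.32 and 9.01 in OLT livers and between 7.95 and 8.35 in BNF livers, against 8.24 to 8.57 in control livers. Its difference from control was 0.26 under D3T (interval -0.03 to 0.54), 0.19 under OLT and -0.20 under BNF, and all groups overlapped with control.

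In the non-oxidative branch D3T raised both transferases and the isomerase was not called. Tkt (gene ID 64524), transketolase, moves 2-carbon units between sugar phosphates. It read 11.48, 12.01, 11.85, 11.45 and 10.95 in D3T livers and 12.07, 10.91, 10.48, 10.34 and 10.61 in OLT livers. It read 9.54, 9.55, 9.71, 9.86 and 10.10 in BNF livers, against 10.47, 10.19, 10.88, 10.01 and 10.13 in control livers. The lowest D3T array, D3T 5, lay just above the highest control array, and OLT overlapped with control. The D3T difference was 1.21 (SE 0.27, 2.32-fold, limma adjusted p = 0.00666), and 1.36 without the 2 arrays. Under OLT it was 0.55 (interval -0.02 to 1.11), and 0.25 without them, and was not called either way. In BNF livers 4 of 5 arrays lay below all control arrays, and the difference of -0.58 (interval -1.15 to -0.02) had an adjusted p of 0.295.

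Taldo1 (gene ID 83688), transaldolase, which exchanges 3-carbon units in the same branch, followed Tkt under D3T at a smaller size. It read 10.48, 10.55, 10.85, 10.74 and 10.21 in D3T livers and 10.86, 10.06, 9.56, 9.81 and 10.08 in OLT livers. It read 9.65, 9.60, 9.39, 9.58 and 9.81 in BNF livers, against 9.96, 9.37, 9.68, 9.36 and 9.75 in control livers. All D3T arrays lay above all control arrays, and the OLT and BNF groups overlapped with control. D3T differed from control by 0.94 (SE 0.19, 1.92-fold, limma adjusted p = 0.00339). OLT differed by 0.45 (interval 0.05 to 0.85, adjusted p = 0.168) and BNF by -0.02 (interval -0.42 to 0.38). Rpia (gene ID 362383), ribose 5-phosphate isomerase, was not called under D3T: it read 7.10, 6.22, 6.20, 7.24 and 6.42 in D3T livers, against 7.41, 6.53, 6.45, 6.36 and 6.51 in control livers, a difference of -0.02 (interval -0.56 to 0.53). It was the one enzyme whose OLT mean lay below control. The OLT arrays read 5.26, 6.17, 6.26, 6.43 and 5.84, of which 4 lay below every control array, and the difference of -0.66 (interval -1.20 to -0.12) had an adjusted p of 0.135. BNF arrays, between 6.03 and 6.84, gave -0.14. Control 1, the highest control array, stood apart from the others for this gene. The second probe set of Rpia, between 0.90 and 1.08 in all arrays, lay at background.

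Idh1 (gene ID 24479), which makes cytosolic NADPH from isocitrate, was called under both dithiolethiones at a size far below that of Me1. It read 13.35, 13.54, 13.60, 13.42 and 13.55 in D3T livers and 13.51, 13.29, 13.28, 13.47 and 13.37 in OLT livers. It read 13.17, 13.24, 13.19, 13.23 and 13.46 in BNF livers, against 13.08, 13.03, 13.29, 12.89 and 12.99 in control livers. The D3T arrays all lay above the controls, and the OLT arrays overlapped with the highest control array, control 3. The difference was 0.44 under D3T (SE 0.08, limma adjusted p = 0.00157) and 0.33 under OLT (SE 0.08, 1.25-fold, adjusted p = 0.0191). Without the 2 arrays OLT gave 0.30 and was not called (adjusted p = 0.0549), nor was it without OLT 1 alone (adjusted p = 0.0534) or without control 4 (adjusted p = 0.0533). BNF gave 0.20 (interval 0.04 to 0.37, adjusted p = 0.194). These were the smallest called differences, and the spread was small too, with an SD of 0.10 in D3T and OLT livers and 0.15 in control livers. Its second probe set lay between 2.87 and 3.11, at background.

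H6pd (gene ID 298655) carries out the first pentose phosphate steps within the endoplasmic reticulum, where its NADPH feeds the glucocorticoid reductase Hsd11b1. It read 9.62, 9.63, 10.13, 10.17 and 10.24 in D3T livers and 10.02, 9.47, 9.44, 9.81 and 9.93 in OLT livers. It read 9.12, 9.64, 8.84, 8.90 and 8.78 in BNF livers, against 9.31, 9.40, 9.21, 9.22 and 9.38 in control livers. All D3T and all OLT arrays lay above the controls, while 4 of 5 BNF arrays lay below them. The difference was 0.65 under D3T (SE 0.17, 1.57-fold, limma adjusted p = 0.0170). It was 0.43 under OLT (interval 0.07 to 0.78, adjusted p = 0.142) and -0.25 under BNF, and neither was called. Unlike Me1, Pgd, Tkt and Taldo1, H6pd was highest in D3T 5 among the D3T arrays. Hsd11b1 rose by 1.84 under D3T (limma adjusted p = 0.00365) and was not called under OLT, where it differed by 0.18. Unlike H6pd, Hsd11b1 was lowest in D3T 5 among the D3T arrays, at 10.26. Without D3T 5 and OLT 1 its mean was 12.39 under D3T and 10.02 under OLT, against 10.12 in controls.

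Groups that did not overlap with control, every array above every control array, numbered 6 of the 8 genes under D3T and 3 under OLT (Me1, Pgd and H6pd). Over all kept probe sets 4.15% were placed so under D3T and 1.82% under OLT. So H6pd was separated from control under OLT without being called, and Idh1 was called without being separated. Under BNF no enzyme was called with limma, and 2 (Tkt, lower, and Idh1, higher) had an unadjusted p under 0.05. The share of all kept probe sets under that limit was not counted. In the same BNF livers Cyp1a1, the cytochrome P450 that AhR ligands induce, was 8.33 above control (limma adjusted p = 6.4e-05). In BNF livers markers of other cell types were higher as well: 3 of 5 stellate cell and fibroblast markers (mean log2 level 6.77 to 7.83 in BNF arrays and 5.53 to 6.78 in controls), 1 of 5 macrophage markers (7.28 to 8.69 and 6.76 to 7.42) and 1 of 3 lymphocyte markers (7.61 to 8.30 and 6.82 to 7.50) were called. Under BNF 0 of 4 endothelial, 0 of 1 cholangiocyte, 0 of 1 neutrophil and 0 of 2 red cell markers were called. Of the hepatocyte markers, 1 of 6 was called higher. The part of these markers in the BNF values of the enzymes was not tested.

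The 2 dithiolethiones were fed at different doses, 500 mg of OLT and 600 mg of D3T per kg of diet, so their values stand side by side and the dose and the methyl and pyrazinyl groups cannot be told apart. All 8 enzymes had a lower mean in OLT livers than in D3T livers, with a median difference of -0.57, beside -0.02 over all kept probe sets. With limma over all arrays 0 of 8 were called, as were 0.0% of all kept probe sets, and 5 of the 8 had an unadjusted p under 0.05. The shares of all kept probe sets with a lower mean or with such a p were not counted. Me1 differed by -1.33 (interval -2.07 to -0.58, limma adjusted p = 0.189), Pgd by -0.92 (-1.51 to -0.33), Tkt by -0.66 (-1.23 to -0.10) and Taldo1 by -0.49 (-0.89 to -0.09). Rpia differed by -0.65 (-1.19 to -0.11). For Idh1, Pgls and H6pd the intervals included 0, at -0.28 to 0.06, -0.35 to 0.23 and -0.58 to 0.13. A missed call does not show that the compounds act alike, since the Me1 interval reaches down to -2.07.

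Without the arrays labelled D3T 5 and OLT 1, 4 of the 8 were called lower in OLT livers than in D3T livers, Me1, Pgd, Tkt and Taldo1, beside 2.49% of all kept probe sets. Me1 then differed by -1.95 (SE 0.25, interval -2.47 to -1.43, limma adjusted p = 0.000183), Pgd by -1.38 (adjusted p = 0.00118), Tkt by -1.11 (adjusted p = 0.00292) and Taldo1 by -0.78 (adjusted p = 0.00612). For each of the 4, all remaining OLT arrays lay below all remaining D3T arrays, as did 5.30% of all kept probe sets. Leaving out OLT 1 alone gave the same 4 calls, with Me1 at -1.61 (limma adjusted p = 0.0271), beside 96 of 12806 kept probe sets called lower. Leaving out D3T 5 alone gave 1, Me1 at -1.66 (limma adjusted p = 0.00966), beside 139 of 12928. In these 4 genes D3T 5 was the lowest D3T array and OLT 1 the highest OLT array. Leaving them out therefore widened these differences by construction. Idh1, Pgls, Rpia and H6pd were not called without the 2 arrays, at -0.13, -0.08, -0.52 and -0.23.

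**Figure D3:**
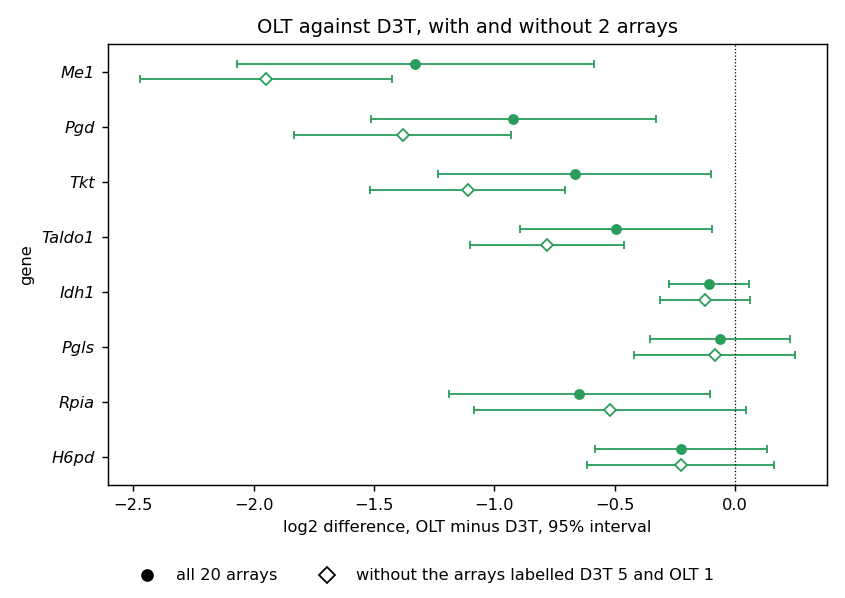
OLT minus D3T (log2) for each enzyme, with 95% intervals from limma, over all 20 arrays (filled circles) and without the arrays labelled D3T 5 and OLT 1 (open diamonds). Without the 2 arrays Me1, Pgd, Tkt and Taldo1 move further below 0, with Me1 at -1.95, against -1.33 over all arrays.

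Set against BNF in place of control, D3T livers had 6 enzymes called higher, Me1, Pgd, Tkt, Taldo1, Pgls and H6pd, beside 8.70% of all kept probe sets. Tkt differed by 1.80 (SE 0.27, limma adjusted p = 0.000191), more than its 1.21 against control, and H6pd by 0.90 (adjusted p = 0.00136). Pgls was called here alone, by 0.45 (adjusted p = 0.0327), and not without the 2 arrays (adjusted p = 0.0611). Idh1 missed the threshold, at 0.23 (adjusted p = 0.0556). On the probe sets that stood for the genes, OLT livers had 2 enzymes called higher than BNF livers, beside 4.29% of all kept probe sets. These were Tkt, by 1.13 (limma adjusted p = 0.0119), and H6pd, by 0.68 (adjusted p = 0.0160), neither of which was called against control. The comparisons with BNF share the D3T and OLT rats with those above.

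Me1 had a second kept probe set, and the 2 did not give BNF the same sign. On the second, BNF livers read 7.34, 6.28, 6.77, 6.57 and 8.17, against 8.28, 7.55, 7.31, 7.62 and 8.06 in control livers. This is a difference of -0.74 (interval -1.53 to 0.05, limma adjusted p = 0.356), where the first gave 0.34. D3T livers read 10.72, 10.84, 10.41, 10.32 and 9.33 on it, 2.56 above control (adjusted p = 0.000236). OLT livers read 9.74, 8.69, 7.65, 8.69 and 8.56, or 0.90 above control (adjusted p = 0.163). The D3T call against control held on both probe sets and the OLT call on the first only. Set against BNF, OLT livers were called higher on the second only, by 1.64 (limma adjusted p = 0.00913). Without D3T 5 and OLT 1 this was 1.37 (limma adjusted p = 0.0146). The first gave 0.95 for OLT against BNF over all arrays (limma adjusted p = 0.104). Within an array, the first probe set exceeded the second by 1.88 ± 0.40 in BNF livers, 0.86 ± 0.34 in D3T livers and 1.19 ± 0.25 in OLT livers, against 0.80 ± 0.12 in control livers (SD, n = 5 each). The gap in every BNF array, 1.37 to 2.47, was wider than in every control array, 0.69 to 0.98. An exact two-sided permutation test of the gap, chosen after the values had been seen, gave p = 0.00794 for BNF, the smallest that 252 arrangements allow, p = 0.0317 for OLT and p = 0.738 for D3T. Adjusted over these 3 comparisons the values were 0.0238, 0.0476 and 0.738. Without OLT 1 the OLT gap was 1.17 (exact permutation p = 0.0397). What the 2 probe sets each detect was not tested.

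**Figure D4:**
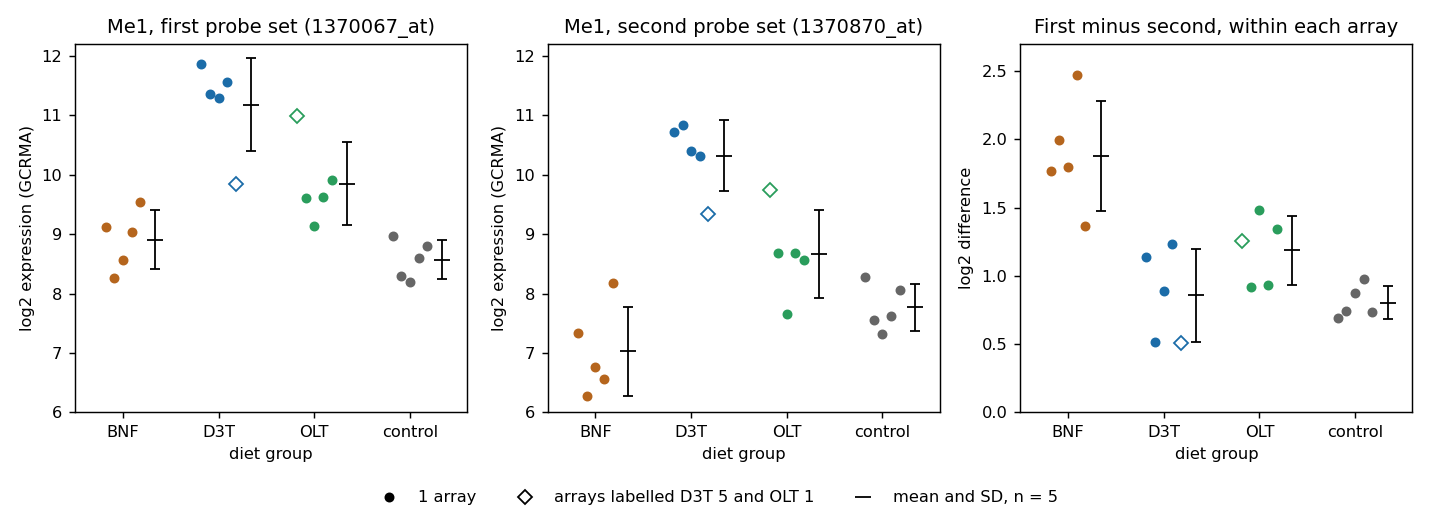
The 2 kept probe sets of Me1 in every array (log2), and in the panel on the right the first minus the second within each array, by diet. Points are arrays, bars are the mean and SD, and open diamonds are the arrays labelled D3T 5 and OLT 1. BNF arrays sit furthest apart between the probe sets, by 1.88 on average, against 0.80 in controls.

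Among other genes of the same pathways, Aldh1l1 had the largest change. Of 19 further NADPH sources, NAD kinases and pentose phosphate genes, 17 were measured (not Me3 or Mthfd2). D3T raised 4 and lowered 0, OLT raised 1 and BNF lowered 2, with medians of 0.06, 0.04 and -0.16. Aldh1l1, the cytosolic formyltetrahydrofolate dehydrogenase, which makes NADPH from formyl groups, rose to 13.14 ± 0.43 under D3T and 12.22 ± 0.69 under OLT, against 10.99 ± 0.22 in controls. Its differences were 2.15 (SE 0.26, limma adjusted p = 3.95e-05) and 1.24 (SE 0.26, adjusted p = 0.00788). The other 3 raised by D3T were Shpk, sedoheptulokinase, by 0.54 (adjusted p = 0.0135), Slc25a1, the mitochondrial citrate carrier, by 0.40 (adjusted p = 0.0252) and Nadk, the cytosolic NAD kinase, by 0.33 (adjusted p = 0.0495). Slc25a1 was not called without D3T 5 and OLT 1 (limma adjusted p = 0.0556). In that fit D3T raised 3 of the 17, OLT raised 1 and BNF lowered 3. Mthfd1, another folate enzyme that makes NADPH, fell by 0.71 under BNF (limma adjusted p = 0.000287), and Nadk2, the mitochondrial NAD kinase, fell by 0.89 (adjusted p = 0.00610).

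**Figure D5:**
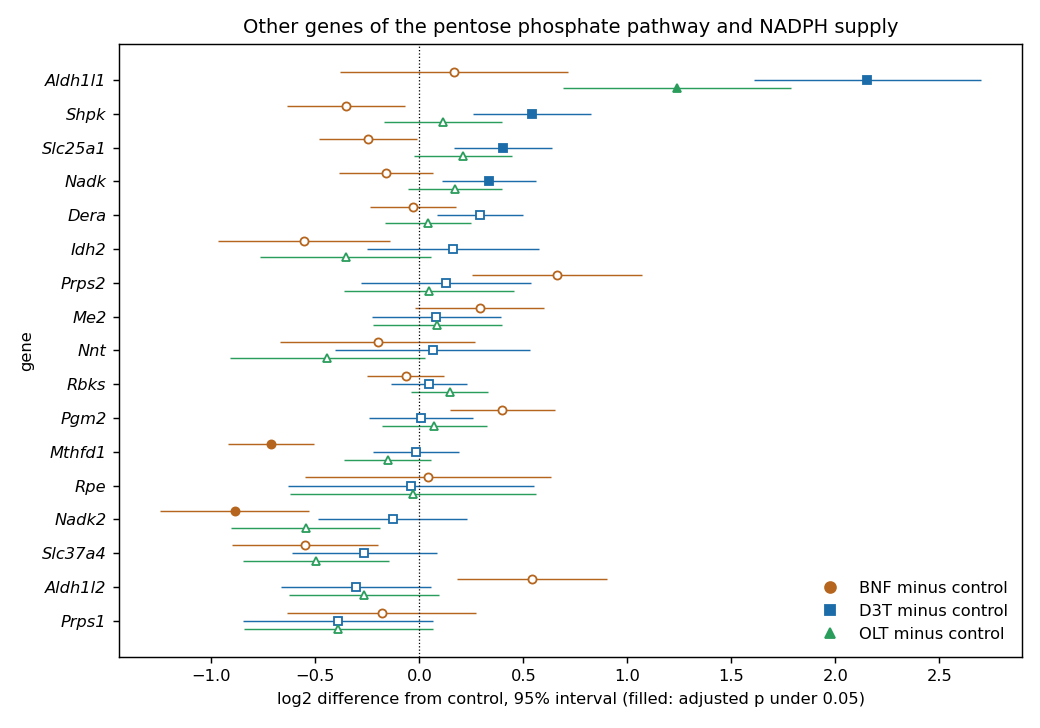
Difference from control (log2) of the other measured NADPH and pentose phosphate genes under BNF, D3T and OLT, with 95% intervals. Filled points are called at an adjusted p under 0.05, with Aldh1l1 at 2.15 under D3T and 1.24 under OLT.

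Enzymes that spend NADPH went both ways. All 10 listed were measured: D3T raised 4 and lowered 1, OLT raised 0 and lowered 1, and BNF raised 1 and lowered 1. Without D3T 5 and OLT 1, D3T raised 5 and lowered 1, OLT raised 0 and lowered 1, and BNF raised 1 and lowered 2. Nqo1, the quinone reductase, rose by 3.22 under BNF (limma adjusted p = 4.36e-05) and by 2.41 under D3T (adjusted p = 0.000390), and differed by 1.16 under OLT (adjusted p = 0.0723). In the BNF livers none of the 8 enzymes of NADPH supply was called higher. This does not show that they were unchanged, since the BNF interval of Pgd reached 1.17. Por, which passes electrons from NADPH to microsomal cytochromes P450, fell by 1.88 under D3T and by 1.14 under OLT. Fatty acid synthase, Fasn, which consumes NADPH for every chain it builds, rose by 1.87 under D3T (adjusted p = 0.00214) and fell by 1.41 under BNF (adjusted p = 0.0326). Fasn is also among 10 lipogenic genes, of which 9 were measured (not Acacb). D3T raised 5 of them, OLT 1 and BNF 0, while BNF lowered 4, and the medians were 1.11, 0.49 and -0.93. Without D3T 5 and OLT 1, D3T raised 5, OLT 1 and BNF 0, while BNF lowered 6. The medians were then 1.06, 0.18 and -0.93. The desaturase Scd rose by 2.30 (adjusted p = 0.0135), acetyl-CoA carboxylase Acaca by 1.31 (adjusted p = 0.00145) and ATP citrate lyase Acly by 1.29 (adjusted p = 0.00264) under D3T. Acaca fell by 1.13 under BNF (adjusted p = 0.0101). Of 7 genes chosen as anchors of the Nrf2 and AhR responses, D3T raised 3, OLT 1 and BNF 3. Without D3T 5 and OLT 1, D3T raised 4 and lowered 1, OLT raised 3 and lowered 1, and BNF raised 4. Among the anchors Ephx1, the microsomal epoxide hydrolase, rose by 2.24 under D3T and by 1.70 under OLT over all arrays. These counts pool the 2 responses. Over all arrays 5 of the 7 means lay above control under OLT, and 5 under D3T. Under OLT, Gclm (10.46, control 10.79) and Srxn1 (7.44, control 7.95) lay below. Under D3T, Cyp1a1 (5.20, control 5.26) and Cyp1a2 (13.69, control 13.88) lay below. Under OLT, Cyp1a1 read 7.51 ± 2.67 and Cyp1a2 14.29 ± 0.28. These lists were chosen with earlier results known and share Fasn, Nqo1 and Txnrd1, and their counts are a description.

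The genes whose 20 values, each minus its control mean, lay closest to those of an enzyme were found for Me1, Pgd and Tkt, the 3 with a called difference above 1. Likeness was the mean absolute difference in log2 over the 20 arrays. For Me1 they were Aldh1l1 (0.291), the glutathione transferase Mgst2 (0.316) and the glutathione transferase Gsta3 (0.337). For Pgd they were Slc17a1 (0.210), Mgst2 (0.228) and Slc17a3 (0.241), and for Tkt Scly (0.215), Ugdh (0.218) and Acly (0.278). Gsta3, for example, stood 2.38 above control under D3T and 1.29 under OLT, close to Me1 in both, but 1.05 under BNF, where Me1 gave 0.34. The measure describes these arrays alone and uses the rats on which the enzymes themselves were measured.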

How the data were processed

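Liver RNA of 20 rats was hybridized to 1-colour Affymetrix arrays. The deposited values are log2 probe set summaries made by the authors with GCRMA, a method for background correction, between-array normalization and probe summarization, per the submitters' processing notes; its version is not given in the sources used here. They were used as deposited. Scan batches were not analysed here. The number of arrays limits the precision.

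Gene names came from the platform annotation and were updated by gene identifier (GRCr8 table). Of 31042, 20826 name 1 gene, 436 several and 9780 none. Where a gene had several kept probe sets, the one of highest mean stood for it. Tests used limma 3.58.1 in R 4.3.3 (lmFit, eBayes with an intensity trend, two-sided) on 1 fit of all 20 arrays, with Benjamini-Hochberg adjustment over 12947 kept probe sets (12786 without D3T 5 and OLT 1). Adjusted p-values of alternatives come from a fit of the arrays left, adjusted over its own kept probe sets, and those of the Me1 probe set gap from permutation. The moderated variances gave SE and 95% intervals. The fit was tested on simulated data.

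The members and lists were chosen with earlier results of these data known. Named from the lists are called genes with a difference above 1 from control, at most 4 a list, and every called gene of the NADPH list. Anchors of the AhR and Nrf2 responses were treated likewise. Anchors with a mean below control under D3T or OLT over all arrays are named too. Some genes are not reported here. The p-values measure the spread between these rats. Alternatives were no filter, a stricter filter (log2 above 6), median centring, quantile normalization, no trend, a fit of 2 groups alone, a block for replicate number, averaging each gene's probe sets, leaving out D3T 5 and OLT 1, and leaving out each array.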

Additional observations from a re-analysis of the deposited data

Results flagged for a closer look

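In 36 sets of 5 arrays, each probe set in each diet, 5 had an array that stood apart from the other 4 by Dixon's test, which chance gives in about 1 of 20 sets. Me1 in the array labelled D3T 5 read 9.84, below the other D3T arrays. Pgd in the array labelled OLT 1 read 11.15, above the other OLT arrays. Both arrays are those set aside in the report. Idh1 in BNF 5 read 13.46, above the other BNF arrays. Pgls in D3T 4 read 8.31, below the other D3T arrays. Rpia in control 1 read 7.41, above the other control arrays.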

How the results depend on the processing

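Under the alternatives, 1392 values for single enzymes were recomputed: 1315 kept their direction and side of the threshold, 41 lost a call, 19 gained one and 17 changed sign, of which 0 were called in either fit. D3T versus control kept 6 calls in every leave-one-out fit (Me1 2.44 to 2.94, H6pd 0.58 to 0.74), and BNF versus control 0. The count for OLT versus control, 3, was 1 without a filter, 0 with only the 2 groups fitted, 1 without D3T 5 and OLT 1, and 0 to 3 in leave-one-out; there Pgd lost its call in 16 of 20 fits, Me1 in 6 and Idh1 in 2. OLT versus D3T gave 4 without the 2 arrays and 0 to 4 in leave-one-out. OLT versus BNF, 2, was 4 after median centring, 1 with only the 2 groups and 2 to 3 in leave-one-out. Over all kept probe sets OLT versus BNF gave 556 calls higher and 690 lower. These became 1011 and 721 after centring, and 399 and 503 with only the 2 groups. D3T versus BNF ranged over 5 to 7 enzymes in leave-one-out. Array medians were lower than in controls by 0.07 (BNF), 0.15 (D3T) and 0.17 (OLT), which centring adds to each difference. Over all kept probe sets the D3T calls, 599 higher and 903 lower, became 1227 and 718 after centring and 939 and 937 after quantile normalization; the OLT calls, 198 and 628, became 635 and 497, and 505 and 645; the BNF calls, 189 and 261, became 289 and 212, and 312 and 267. With only 2 groups fitted, OLT gave 81 and 301, and without a filter 92 and 365. The sign changes were these. Me1 under BNF was -0.20 with the mean of its probe sets. Taldo1 under BNF was 0.049 after median centring, 0.066 after quantile normalization and -0.084 to 0.066 in leave-one-out. Rpia under D3T was 0.13 after centring, 0.10 after quantile normalization, 0.039 without D3T 5 and OLT 1, and -0.17 to 0.17 in leave-one-out. In leave-one-out, Rpia was -0.22 to 0.053 under BNF and -0.029 to 0.23 in D3T versus BNF, and Pgls was -0.17 to 0.0060 in OLT versus D3T. With the replicate block the counts of enzymes were 0, 6 and 2 for BNF, D3T and OLT versus control, and 0, 6 and 2 for OLT versus D3T, D3T versus BNF and OLT versus BNF. Deviations of same-numbered arrays from their group means correlated at r -0.27 to 0.30 (30 pairs, median 0.06, 11 over 0.1). Differently numbered pairs were not examined, so these values cannot decide whether the numbers pair rats. The main fit has no block because the labels name no pairing.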
